A study of Homo sapiens with 30 samples.

Results

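Open chromatin was compared between G401 cells that expressed OmoMYC, an inhibitor of MYC, and G401 cells that expressed EGFP. The comparison used 6 of the 30 samples of the series, chosen by their labels: the ATAC-Seq peak lists of OMOMYC replicates 1 to 3 and EGFP replicates 1 to 3. G401 is an established malignant rhabdoid tumor (MRT) line that lacks SNF5 (gene SMARCB1), a core subunit of the SWI/SNF chromatin remodeling complex. All cells, controls included, carried a TET-inducible construct delivered by lentivirus, had been selected with G418 and received 1 μg/ml doxycycline for 24 h. The groups therefore differed in the induced protein, EGFP or OMOMYC. The transduced cells were a selected population of 1 cell line. The study calls its replicates biological, but nothing in the labels says that those of a group came from separate transductions. The spread between ATAC-Seq replicates may therefore be partly technical, and PRO-Seq replicates differed widely at some genes, as given below. Each list held the peaks called in 1 sample in hg38 coordinates. Overlapping peaks of the 6 lists (1 bp or more in common) were joined, which gave 25628 sites. A site whose strongest summit lay within 1 kb of a GENCODE 44 transcript start was called a promoter site (13150 sites), a site at least 5 kb from any start was called distal (9707 sites), and 2771 sites lay in between.

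ATAC-Seq uses a transposase that inserts sequencing adapters where DNA is not covered by nucleosomes, so that peaks mark promoters, enhancers and other accessible elements. MYC pairs with MAX through its basic helix-loop-helix leucine zipper and binds the E-box CACGTG, mostly at promoters of genes for ribosome production, translation and metabolism. OmoMYC is a mutant form of that zipper region that pairs with MYC, MAX and itself, occupies E-boxes without a transactivation domain, and so competes with MYC. The question of the comparison is whether removal of MYC function alters which sites are accessible.

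Promoters that carry the comparison are shown first, as windows of 300 bases (250 before and 50 after the transcript start) from RefSeq in GRCh38.p14, written 5′ to 3′ on the strand of the gene. Capitals mark CACGTG, which reads the same on both strands. The first 3 windows were the MYC-bound promoters with the most CACGTG, 3 each, among promoters with a peak in all 6 lists. They belong to FAM118B, which encodes a protein of Cajal bodies (chr11:126211532-126211831, plus strand), CDK4, the cyclin D-dependent kinase (chr12:57752261-57752560, minus strand), and ERP29, a chaperone of the endoplasmic reticulum (chr12:112013176-112013475, plus strand). The other windows stand for the few sites that differed most: APH1A, a subunit of γ-secretase (chr1:150268967-150269266, minus strand), had a peak in the 3 OMOMYC lists only, UQCR11, a subunit of respiratory complex III (chr19:1605413-1605712, minus strand), in the 3 EGFP lists only, and IARS1, the cytosolic isoleucyl-tRNA synthetase (chr9:92293648-92293947, minus strand), in all 6 lists with a higher rank under OMOMYC.
FAM118B: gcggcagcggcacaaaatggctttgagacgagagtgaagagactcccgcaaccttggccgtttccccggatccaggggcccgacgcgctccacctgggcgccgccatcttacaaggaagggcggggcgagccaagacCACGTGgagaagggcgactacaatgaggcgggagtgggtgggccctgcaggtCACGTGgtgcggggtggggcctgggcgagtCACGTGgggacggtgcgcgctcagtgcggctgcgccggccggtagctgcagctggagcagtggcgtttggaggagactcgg
CDK4: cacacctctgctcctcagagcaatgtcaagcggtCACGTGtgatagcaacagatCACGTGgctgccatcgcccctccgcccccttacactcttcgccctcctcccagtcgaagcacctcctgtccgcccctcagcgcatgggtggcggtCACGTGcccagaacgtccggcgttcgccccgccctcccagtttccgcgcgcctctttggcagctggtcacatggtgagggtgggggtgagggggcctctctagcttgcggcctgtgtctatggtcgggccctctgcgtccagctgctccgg
ERP29: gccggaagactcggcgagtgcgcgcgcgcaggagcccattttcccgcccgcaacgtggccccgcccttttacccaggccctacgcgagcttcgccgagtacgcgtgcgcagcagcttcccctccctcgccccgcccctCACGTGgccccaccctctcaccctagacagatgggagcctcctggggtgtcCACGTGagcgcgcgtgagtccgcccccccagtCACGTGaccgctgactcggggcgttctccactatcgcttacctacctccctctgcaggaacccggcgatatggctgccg
APH1A: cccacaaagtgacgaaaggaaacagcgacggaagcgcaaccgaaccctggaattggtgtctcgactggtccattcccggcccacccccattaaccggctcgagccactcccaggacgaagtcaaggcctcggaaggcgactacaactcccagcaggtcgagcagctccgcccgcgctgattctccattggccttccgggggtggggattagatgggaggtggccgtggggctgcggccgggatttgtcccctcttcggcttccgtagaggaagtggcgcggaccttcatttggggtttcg
UQCR11: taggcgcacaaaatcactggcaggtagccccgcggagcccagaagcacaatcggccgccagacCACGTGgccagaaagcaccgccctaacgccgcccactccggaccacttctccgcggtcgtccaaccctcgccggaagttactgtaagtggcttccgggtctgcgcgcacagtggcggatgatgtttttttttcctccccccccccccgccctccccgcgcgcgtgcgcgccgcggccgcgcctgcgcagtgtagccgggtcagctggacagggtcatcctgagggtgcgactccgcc
IARS1: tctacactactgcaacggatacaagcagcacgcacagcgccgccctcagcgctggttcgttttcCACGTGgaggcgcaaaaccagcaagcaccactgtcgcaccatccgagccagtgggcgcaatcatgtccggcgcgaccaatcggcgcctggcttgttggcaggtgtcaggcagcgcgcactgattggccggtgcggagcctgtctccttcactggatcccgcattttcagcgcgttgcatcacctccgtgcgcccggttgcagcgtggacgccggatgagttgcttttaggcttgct

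These 3 promoters with several E-boxes had a peak in every list, and their strength did not move one way. The strength of a peak is given as −log10 q of the peak caller, and, because this value grows with the depth of a library, also as a rank percentile: the rank of the site among the 5314 sites with a peak in all 6 lists, from 0 for the weakest to 100 for the strongest. At FAM118B, −log10 q was 14.7, 21.6 and 12.1 in EGFP replicates 1 to 3 and 9.64, 23.3 and 19.2 in OMOMYC replicates 1 to 3, and the mean rank percentile was 49.5 and 52.5. At CDK4 it was 9.11, 23.8 and 8.21 against 9.04, 15.5 and 5.44, with mean rank percentiles of 30.4 and 17.7. At ERP29 it was 11.6, 13.0 and 8.89 against 7.49, 11.1 and 9.02, with mean rank percentiles of 20.7 and 13.6. The groups overlapped at all 3 promoters.

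OmoMYC changed neither the number nor the size of open sites by more than the replicates differed among themselves. There were 12484, 17817 and 9208 peaks in EGFP replicates 1 to 3, and 7260, 23684 and 12224 in OMOMYC replicates 1 to 3. The means were 13170 ± 4345 and 14389 ± 8423 peaks (SD, n = 3), a difference of 1220 peaks (two-sided exact permutation test, p = 0.9). With 3 samples against 3, this test cannot give a p below 0.1. The longest and the shortest list both belonged to OMOMYC, so the groups overlapped fully. Median peak width was 263, 264 and 248 bp with EGFP and 252, 252 and 247 bp with OMOMYC, a difference of −8 bp (exact permutation p = 0.3). Among the 5314 sites in all 6 lists, median width was 393, 482 and 321 bp with EGFP and 287, 517 and 369 bp with OMOMYC, and followed list length. At these sites the median log2 ratio of widths, OMOMYC over EGFP, was −0.02 at promoters and −0.01 at distal sites. In all, 16 measures per list were compared, and every adjusted p was 1 (Benjamini-Hochberg over the 16 exact permutation tests).

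Promoters made up most peaks in each list. Their share was 73.5%, 62.0% and 78.4% with EGFP and 87.8%, 52.7% and 68.4% with OMOMYC (exact permutation p = 1). Distal peaks took 20.03%, 29.8% and 17.3% with EGFP and 8.97%, 36.9% and 25.4% with OMOMYC. The shortest list had the lowest distal share and the longest list the highest, and both were OMOMYC lists. In absolute numbers, promoter peaks ranged from 6372 to 12481 and distal peaks from 651 to 8737. The lists hold no read counts. The study gives read totals for the libraries, which do not order them as list length does, and these totals were not used here. Intervals on shares below cover the number of sites only.

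**Figure D1:**
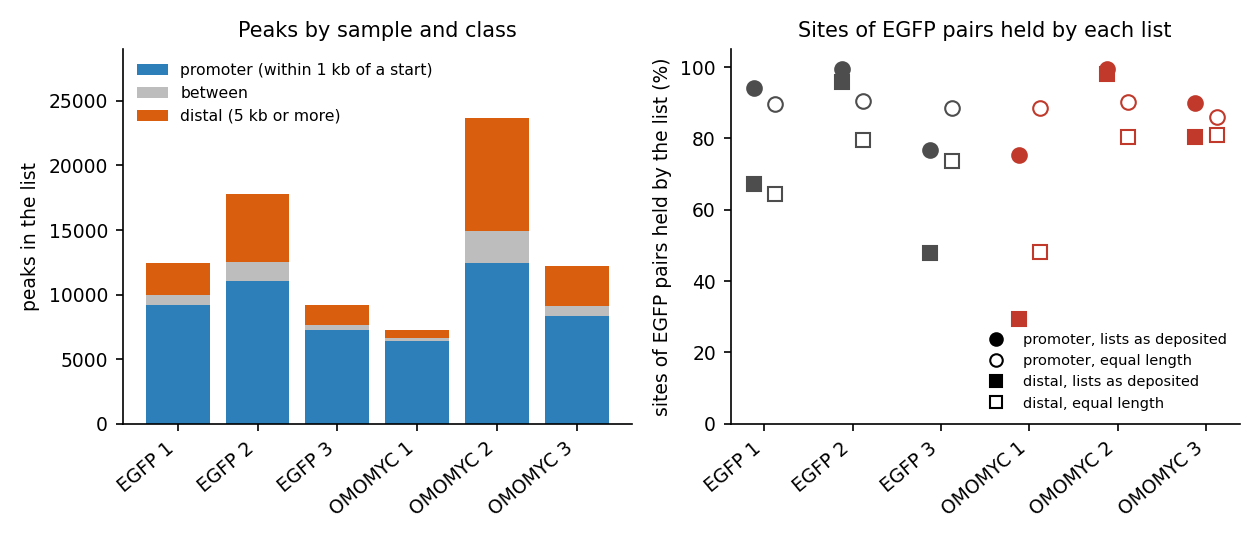
The left panel stacks the number of peaks (y axis) per list (x axis) by class, promoter, between and distal. The right panel gives, for sites shared by a pair of EGFP lists, the percentage (y axis) that each remaining list also holds, at promoters (circles) and distal sites (squares), as deposited (filled) and with every list reduced to its 7260 strongest peaks (open). Peak numbers run from 7260 to 23684, both in OMOMYC lists, and the differences in held sites are smaller at equal length.

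One library stood apart. Across the 5314 shared sites, ranks in OMOMYC replicate 1 correlated with those of the 5 other lists at Spearman's rho of 0.553 to 0.600, the other OMOMYC lists included. The EGFP lists correlated with one another at 0.687 to 0.740, and EGFP lists correlated with OMOMYC replicates 2 and 3 at 0.716 to 0.813. Sites are not independent replicates, and these values describe the lists only. OMOMYC replicate 1 also had the shortest list and the highest promoter share. OMOMYC replicate 2 had 5991 sites found in no other list, 25.7% of its sites, of which 55.6% were distal and whose median percentile in that list was 21.4. The other lists had 60 to 1253 sites of their own. EGFP replicate 2 had strong peaks bounded by MYC exons, which its label as an EGFP control does not account for and which are given with the label checks. Without EGFP replicate 2, when both remaining EGFP lists had to hold a site, 96.5% of promoter and 89.0% of distal sites were also in at least 2 OMOMYC lists, 112 sites were in all OMOMYC and no EGFP lists and 10 the reverse, and limma called 0 of 5324 sites. No peak had the same position and −log10 q in any pair of lists.

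Most sites with peaks in EGFP cells had peaks with OmoMYC, promoters more often than distal sites. Of 7505 sites with a peak in 3 of 3 EGFP lists, 7498 (99.9%) had one in at least 1 OMOMYC list and 7191 (95.8%) in at least 2. A peak in 3 of 3 OMOMYC lists was found at 5314 of them (70.8%), at 77.3% of the promoter sites and at 35.1% of the distal sites. Of 8602 promoter sites in at least 2 EGFP lists, 7549 were in at least 2 OMOMYC lists, 87.8% (95% exact binomial interval 87.0% to 88.4%). Of 2482 such distal sites, 1801 were, 72.6% (70.8% to 74.3%). In at least 1 OMOMYC list, the shares were 99.2% of promoter sites and 97.7% of distal sites. Read the other way, 90.5% of the 8342 promoter sites and 60.6% of the 2970 distal sites in at least 2 OMOMYC lists were in at least 2 EGFP lists. Without OMOMYC replicate 1, when both remaining OMOMYC lists had to hold the site, 83.1% of promoter and 69.4% of distal sites were kept. Without OMOMYC replicate 2, the longest list, 61.7% and 17.9% were kept, and without OMOMYC replicate 3, 66.8% and 20.3%.

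The share of sites held depended on the list more than on the construct. For sites shared by a pair of EGFP lists, the remaining EGFP list held 94.1%, 99.4% and 76.9% of promoter sites (EGFP replicates 1, 2 and 3 in turn), and the OMOMYC lists held on average 75.4%, 99.6% and 89.9% (OMOMYC replicates 1, 2 and 3). For distal sites the values were 67.2%, 95.8% and 48.0% with EGFP and 29.3%, 98.0% and 80.4% with OMOMYC. The values of the 2 groups overlapped, and the longest list of each group held the most sites. When every list was reduced to its 7260 strongest peaks, promoter values were 89.7%, 90.4% and 88.6% with EGFP and 88.5%, 90.2% and 86.0% with OMOMYC. Distal values were then 64.5%, 79.6% and 73.8% with EGFP and 48.1%, 80.4% and 81.0% with OMOMYC. At equal length, OMOMYC replicate 1 lay below every EGFP list and replicates 2 and 3 above at distal sites. At promoters, OMOMYC replicates 1 and 3 lay below the lowest EGFP list, replicate 1 by less than 0.1 percentage points.

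**Figure D2:**
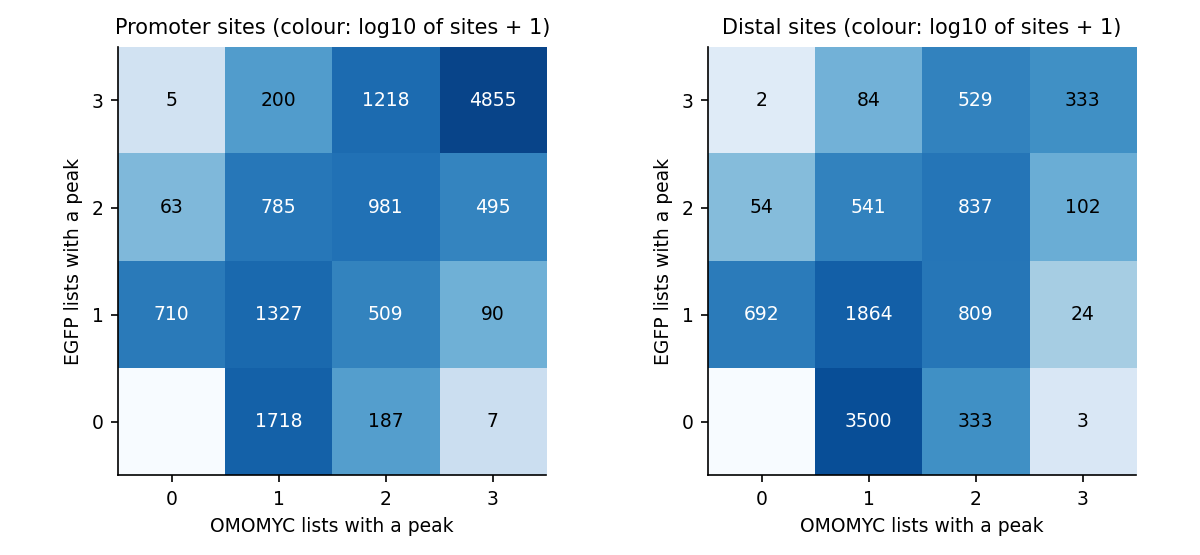
Number of promoter sites (left) and distal sites (right) (printed in each cell, colour on a log10 scale) by the number of EGFP lists (y axis, 0 to 3) and OMOMYC lists (x axis, 0 to 3) that hold a peak. Promoters concentrate at 3 and 3 (4855 of 13150 sites), distal sites at low counts (333 of 9707 at 3 and 3), and the corners for 3 against 0 hold 7 and 5 promoter sites and 3 and 2 distal sites.

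Whether a site was kept followed its strength. Sites were put into 5 equal bands by their mean list percentile (the rank of a peak within its whole list, 100 the strongest). At equal length, in the strongest band, EGFP lists held 99.9% of the promoter sites of the other pair, and OMOMYC replicates 1, 2 and 3 held 99.4%, 99.9% and 99.9%. For distal sites the values were 98.6% with EGFP and 94.0%, 98.1% and 100% with OMOMYC. In the weakest band, promoter sites were held at 57.0% with EGFP and 67.2%, 58.5% and 48.0% with OMOMYC. Weak distal sites were held at 44.1% with EGFP and 14.7%, 62.4% and 58.2% with OMOMYC. In both weakest bands the OMOMYC replicates lay on both sides of EGFP.

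**Figure D3:**
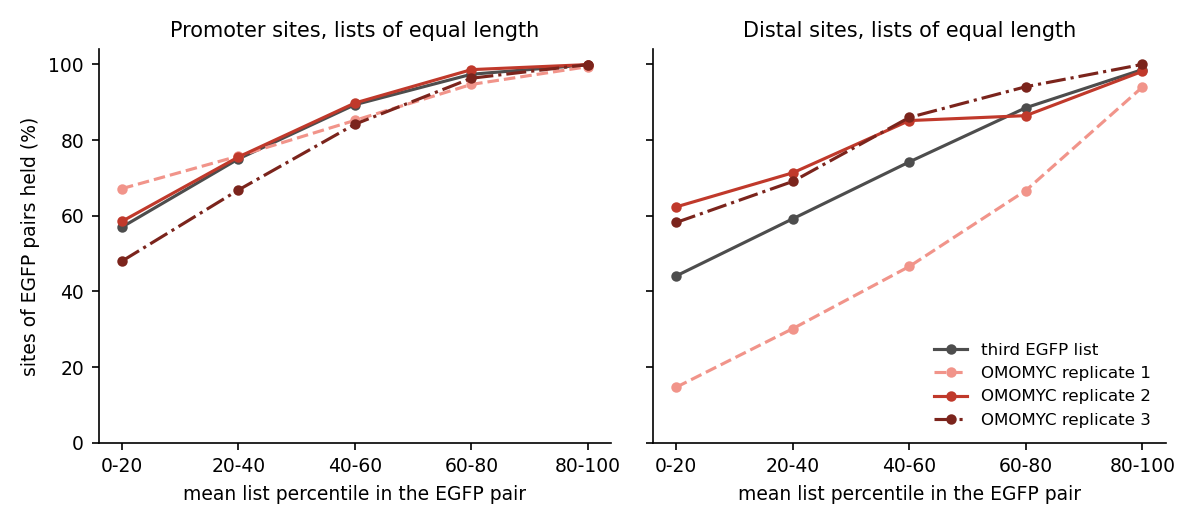
Percentage of sites shared by a pair of EGFP lists that the remaining EGFP list or an OMOMYC list also holds (y axis), by band of mean list percentile in that pair (x axis, weakest to strongest), at equal list length, for promoters and distal sites. All lines rise with strength and reach 94.0% or more in the strongest band. OMOMYC replicate 1 is the lowest line at distal sites.

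Of the 25628 sites, 10 (0.039%) had a peak in 3 of 3 OMOMYC lists and 0 of 3 EGFP lists, and 7 (0.0273%) had the opposite. The gained sites were 7 of the 13150 promoter sites (0.0532%) and 3 of the 9707 distal sites (0.0309%), and the lost sites 5 promoter (0.038%) and 2 distal sites (0.0206%). Gained and lost sites were weaker in the median than shared ones. Their median −log10 q was 7.54 and 7.45, and their median percentile within a list was 30.4 and 25.1, against 69.3 for sites in 3 of 3 EGFP lists. In G401 cells that expressed SNF5 instead, all 10 gained and all 7 lost sites appeared in 1 or more of the 3 ATAC-Seq lists, and 4 and 3 of them in all 3. The share of all 25628 sites found in those lists is not given here, so these counts do not set the gained and lost sites apart. With a looser rule, at least 2 lists against 0, 611 sites (2.38%) were gained and 144 (0.562%) lost. Among promoters these were 194 gained (1.48%) and 68 lost (0.517%), and among distal sites 336 gained (3.46%) and 56 lost (0.577%). The count of gained sites was 550 without OMOMYC replicate 1, 112 without EGFP replicate 2, 70 without OMOMYC replicate 3 and 27 without EGFP replicate 1. The count of lost sites was 312 without OMOMYC replicate 2, 118 without EGFP replicate 3, 30 without EGFP replicate 1 and 11 without OMOMYC replicate 3.

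The gained promoters are given with their −log10 q. At APH1A (chr1:150268964-150269242, an exon), −log10 q was 7.48, 9.25 and 5.35 in OMOMYC replicates 1 to 3. At PSMG2, a chaperone of proteasome assembly (chr18:12702623-12703106, an exon), it was 7.22, 13.2 and 6.02. FKBP1B, which encodes a binding partner of ryanodine receptors, had list percentiles of 16.3, 51.4 and 12.2 at chr2:24049543-24049774. APH1A stood at list percentiles of 32.3, 33.4 and 4.61. Over all gained promoters, list percentiles ran from 1.05 (AHDC1, OMOMYC replicate 3) to 72.7 (LYRM4-AS1, OMOMYC replicate 3). The other gained promoters were those of COL27A1, a fibrillar collagen (chr9:114305891-114306092, 5.90 to 7.77), AHDC1, an AT-hook protein (chr1:27557260-27557506, 4.49 to 6.70), ZNF230-DT, a noncoding RNA beside the zinc finger gene ZNF230 (chr19:44002791-44003045, 7.84 to 9.78), and LYRM4-AS1, an antisense RNA (chr6:5030665-5030925, 7.61 to 14.3). The gained distal sites were in an intron of SND1 (chr7:127792733-127793061, 4.64 to 10.6), at chr2:218847711-218847941, 11967 bp from the start of WNT6 (6.05 to 15.2), and at chr20:28842725-28842984, with no protein-coding start within 2414850 bp (5.93 to 7.62).

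Lost promoters ranged in the EGFP lists from the weakest peaks to list percentiles of 54.1 (FAM161A, replicate 1) and 54.5 (RABL2B, replicate 2). At UQCR11 (chr19:1605491-1605801), −log10 q was 7.45, 6.90 and 5.82 in EGFP replicates 1 to 3, and its window above holds 1 CACGTG. At CBX7, a Polycomb subunit (chr22:39152540-39152912, an exon), it was 5.45, 6.29 and 7.10. FAM161A, which encodes a protein of the cilium base (chr2:61853895-61854243), had 10.6, 9.11 and 4.92. RABL2B, a small GTPase (chr22:50775192-50775442, in an intron and with a near-identical paralog, so its reads are uncertain), had 6.19 to 11.96, and ZNF41, a zinc finger gene (chrX:47482552-47482948, an exon), had 4.31 to 8.08. The lost distal sites were at chr1:225772373-225772580, 5299 bp from the start of SRP9, a subunit of the signal recognition particle (5.94 to 9.64), and at chr4:49709616-49709819, 681031 bp from the nearest protein-coding start (13.1 to 15.1). The last was the strongest of the lost sites. None of the 17 gained or lost sites was at a MYC-bound promoter, as defined below. With so few sites, this does not set MYC-bound promoters apart.

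No change of rank beyond the spread between lists was found at the 5314 shared sites. Of these sites, 4855 (91.4%) were promoters, 126 lay in between and 333 (6.27%) were distal. They were chosen for a peak in every list, so a site without a peak in any 1 list was not ranked. This choice favors stable sites and left few of the 9707 distal sites. The median change of mean rank percentile, OMOMYC minus EGFP, was −0.19 over all sites (quartiles −7.42 and 7.32), −0.25 at promoters, −0.07 in between and 0.12 at distal sites. Of all sites, 3314 (62.4%) moved by less than 10 percentile points. The median standard error of the difference was 11.7 points, and the median SD among replicates was 11.8 points for EGFP and 13.3 for OMOMYC. By limma on normal scores of the ranks, 0 sites rose (0% of 5314) and 0 fell (0%) at an adjusted p of 0.05, and the smallest Benjamini-Hochberg adjusted p was 1.0. At an unadjusted p of 0.05, 87 sites were higher and 74 lower, 3.03% of those tested. With the median standard error, 0.40 on the normal score scale, only large changes of rank could have passed. Without OMOMYC replicate 1, limma also called 0 of 6970 sites, and without OMOMYC replicate 2, 0 of 5322, with a smallest adjusted p of 0.362.

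The place of distal sites in the ranking differed among lists more than between groups. Promoters are 91.4% of the ranked sites, so their median lies near the middle of any list. The median rank percentile of distal sites was 45.9, 38.8 and 45.8 with EGFP and 43.2, 36.7 and 49.96 with OMOMYC. Promoters ranked above distal sites by 4.91, 12.5 and 4.98 points with EGFP and by 7.70, 14.6 and 0.45 points with OMOMYC, a difference between groups of 0.13 points (exact permutation p = 1). Without OMOMYC replicate 1, this difference was −7.35 points. In the strongest of 5 equal bands of mean rank percentile, 752 of 828 sites (90.8%) moved by less than 10 points. In the middle band 666 of 1298 (51.3%) did, and in the weakest 461 of 664 (69.4%). The bands were cut on the same bounded percentiles, so sites at either end had less room to move.

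**Figure D4:**
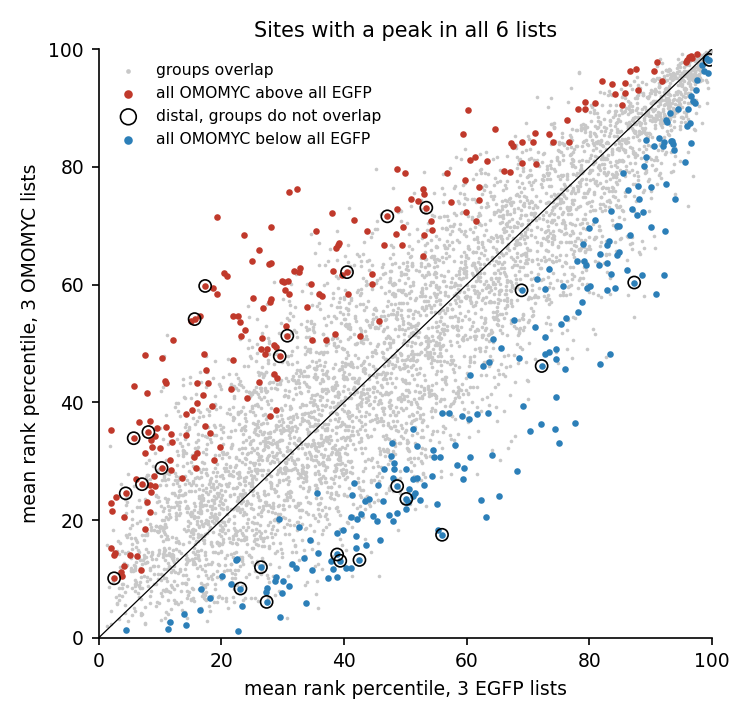
Mean rank percentile of each of the 5314 shared sites with EGFP (x axis) against OMOMYC (y axis), means of 3 lists each. Red and blue points are the 204 sites with all OMOMYC values above and the 210 with all below the EGFP values, rings mark distal sites among them, and points spread on both sides of the diagonal (median change −0.19).

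The 3 values of a group lay all above or all below those of the other at 414 sites (7.79% of 5314), 204 higher with OMOMYC (3.84%) and 210 lower (3.95%). The shares were 3.81% higher and 3.93% lower at promoters, 3.90% and 3.90% at distal sites, and 4.76% and 4.76% at the 126 sites in between (6 each). Sites with the largest such changes were chosen for that property, so their values are a description. KLHL20, a substrate adaptor of Cullin 3 ubiquitin ligases, had rank percentiles of 5.38, 39.0 and 13.6 with EGFP and 71.4, 71.4 and 71.7 with OMOMYC at its promoter (chr1:173714775-173715328), a difference of means of 52.2 points. Its normal score difference was 1.56 (SE 0.40), and the limma adjusted p rounded to 1.0 at each of the 16 sites named for rank. IARS1, whose window with 1 CACGTG is shown above and which was MYC-bound, had 25.7, 39.1 and 32.3 with EGFP and 93.7, 51.8 and 83.4 with OMOMYC. Other promoters with higher ranks were those of KIAA2026 (44.8 points), NUCB2, the precursor of nesfatin-1 (44.7), ZNF8-DT (41.7), FANCI, a Fanconi anemia protein (41.5), and LINC01725, a noncoding RNA (40.8). The distal site with the largest difference upward lay 11000 bp from the start of MAP2K3, a kinase upstream of p38 (chr17:21322999-21323271), at 6.30, 21.9 and 23.9 with EGFP and 52.5, 67.5 and 59.4 with OMOMYC.

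The largest differences downward were at the promoters of CIBAR1, a ciliary BAR domain protein (−42.6 points), TRMT10C, a subunit of mitochondrial RNase P (−42.0), GATAD1 (−41.3), COPB1, a coatomer subunit (−41.1), TBL1XR1, a subunit of the NCoR corepressor (−39.9, MYC-bound), and PPIB, a cyclophilin of the secretory pathway (−38.9). TRMT10C had rank percentiles of 87.7, 63.0 and 74.7 with EGFP and 3.10, 61.4 and 34.9 with OMOMYC (chr3:101561632-101562024). The distal site with the largest difference downward, at chr6:104597353-104598107, lay 134655 bp from HACE1 and had 68.8, 42.6 and 56.6 with EGFP and 8.82, 32.5 and 11.2 with OMOMYC. A site in an intron of TM4SF4 (chr3:149480378-149480683), between the promoter and distal limits, had a difference of −38.9 points. At 7 of these 8 sites the lowest value was that of OMOMYC replicate 1, the library that stood apart. Its part in these differences was not tested.

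Promoters bound by MYC were more often open than others and stayed so. A gene was called MYC-bound where MYC ChIP-Seq peaks that overlapped between both EGFP samples had a summit within 1 kb of its start. Of 1004 such protein-coding genes, 575 (57.3%) had a promoter peak in all 6 ATAC-Seq lists, against 4856 of 18865 other genes (25.7%). By list, 82.1%, 90.8% and 70.6% of MYC-bound genes had a promoter peak with EGFP and 67.1%, 93.6% and 76.4% with OMOMYC. The other genes had 41.5%, 48.5% and 34.1% with EGFP and 31.2%, 52.2% and 38.2% with OMOMYC, so both sets followed list length. Of 830 MYC-bound genes with a peak in at least 2 EGFP lists, 772 kept it in at least 2 OMOMYC lists, 93.0% (exact interval 91.1% to 94.7%). Of the others, 7113 of 7919 did, 89.8% (89.1% to 90.5%). No MYC-bound gene gained or lost its promoter peak by the 3 against 0 rule, and 7 and 4 of the 18865 other genes did. Neighboring genes that share a site are each counted. Such changes were so rare among the other genes that their absence does not set the MYC-bound genes apart.

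Ranks at MYC-bound promoters with a peak in all 6 lists also kept their place in the median. Over 478 MYC-bound promoter sites the median change was −0.89 points (quartiles −8.43 and 6.66), and over 4115 other protein-coding promoters −0.19 (quartiles −7.31 and 7.19). The median rank of MYC-bound promoters minus that of other promoters was −1.21, −2.12 and −5.87 points with EGFP and −2.69, −2.55 and −5.83 points with OMOMYC. The difference of these was −0.62 points (exact permutation p = 0.6, adjusted p = 1), and its sign turned without EGFP replicate 1 (0.71) and without OMOMYC replicate 3 (0.93). It was −2.53 points in lists of equal length and −2.41 by fold enrichment (exact permutation p = 0.3 for both). Groups did not overlap at 16 MYC-bound sites upward (3.35%) and 21 downward (4.39%), close to the 3.84% and 3.95% of all sites.

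The E-box gave a check that used sequence alone. CACGTG was present in 7.26% of 35116 RefSeq promoter windows, in 10.8% of the 6119 that overlapped a site in all 6 lists and in 5.67% of the 23087 that overlapped no site. It was present in 23.7% of 1226 windows of MYC-bound genes and in 26.5% of the 565 of these at sites in all 6 lists. At shared sites that overlapped a window with CACGTG (514 sites), the median rank change was 0.00 points. At shared sites that overlapped only windows without it (3445 sites), it was −0.20. The median rank of the former sites minus that of the latter was −0.997, −2.03 and −3.55 points with EGFP and −0.29, −1.51 and −2.26 with OMOMYC (exact permutation p = 0.5, adjusted p = 1). The content of G and C and the rank change had a Spearman's rho of −0.005 across 3959 windows, which are not independent.

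Genes of the translation machinery kept their promoter peaks at shares near those of all genes (89.8% of other and 93.0% of MYC-bound genes, above). The gene lists were compiled with earlier results on these data known, so they are described by counts and medians beside the values over all sites. Of 79 genes of cytosolic ribosomal proteins, 52 had a promoter peak in at least 2 EGFP lists and 46 of these in at least 2 OMOMYC lists. By list, 52, 67 and 42 genes had a peak with EGFP and 42, 73 and 47 with OMOMYC. The 6 not kept were RPS3, RPS16, RPS28, RPL10, RPL23A and RPL35A, each with 1 OMOMYC list. The median rank change over the 29 ribosomal protein promoters in all 6 lists was −1.28 points, with 14 higher and 15 lower, against −0.19 over all sites. Groups did not overlap at 2 of the 29 upward and 2 downward (6.90% each), beside 3.84% and 3.95% of all sites. Among these were RPL27A (20.8 points), which was higher, and RPS12 (−6.94) and RPL22 (−21.5), which were lower. The extremes were RPLP1, with 0.61, 29.5 and 42.9 with EGFP and 71.4, 16.3 and 51.1 with OMOMYC, and RPL24, with 70.6, 54.3 and 79.0 against 1.54, 54.8 and 46.5. Groups overlapped at both, and at RPL24 the low mean with OMOMYC came mostly from replicate 1. The median rank of ribosomal protein promoters minus that of others was −19.9, −11.96 and −5.34 points with EGFP and −4.54, −6.35 and −4.31 with OMOMYC (exact permutation p = 0.2, adjusted p = 1).

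For ribosome biogenesis (40 genes), 28 of 32 promoters open in at least 2 EGFP lists were kept, and the median rank change of 21 ranked promoters was 1.48 points. It ran from −21.1 at NAT10, an RNA acetyltransferase, to 33.99 at UTP20, a small subunit processing factor, the latter without overlap. For translation factors (28 genes), 22 of 23 promoters were kept, with a median of 0.90 points over 16 ranked, from −14.7 at EIF2S3 to 32.1 at EIF3D. Of 12 hosts of small nucleolar and long noncoding RNAs, 9 of 10 promoters were kept, with a median of −0.11 points over 8, from −17.0 at SNHG8 to 23.2 at TAF1D. For metabolic and cell cycle targets of MYC (37 genes), 26 of 27 were kept and the median was −1.13 points over 21. Within that list CDC25A, a cell cycle phosphatase, stood at 23.04 points and MTHFD1, a folate enzyme, at −16.8, and both had overlapping groups. PKM, a glycolytic kinase, stood at −12.5 without overlap.

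The MYC network itself held few ranked promoters. Of its 12 genes, 8 of 9 promoters open in at least 2 EGFP lists were kept. MXI1, an antagonist of MYC that pairs with MAX, had 32.6, 20.3 and 31.0 with EGFP and 37.7, 38.4 and 36.8 with OMOMYC, without overlap. MAX had 86.5, 56.4 and 50.1 against 49.0, 54.2 and 78.2, and MXD4, another antagonist, had 52.1, 47.2 and 37.7 against 4.05, 36.96 and 43.2. In the list of CDK inhibitors and p53 targets, 9 of 11 promoters were kept, and the median change over 8 ranked promoters was −9.37 points, with 6 lower and 2 higher. SESN2, a stress sensor of the TOR pathway, was the lowest, with 33.9, 47.7 and 41.9 with EGFP and 1.21, 1.71 and 32.6 with OMOMYC, without overlap. The kept counts of these short lists stand beside a kept share of 89.8% over all genes that were not MYC-bound. Among SWI/SNF subunits, 15 of 18 promoters were kept, with a median of −2.17 points over 8, from −17.4 at SS18 to 10.5 at ARID2. AP-1 and immediate early genes kept 9 of 11 and YAP and TEAD targets 8 of 10, with medians of 2.38 over 5 and 5.97 over 4. YAP1, the coactivator of TEAD factors, stood at 21.3 points without overlap.

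Of the 12 genes that the study names in its own account, 10 of 11 promoters open in at least 2 EGFP lists were kept. SNHG15, a noncoding RNA, had rank percentiles of 8.51, 31.5 and 12.5 with EGFP and 25.7, 20.6 and 27.8 with OMOMYC. CCT7, a chaperonin subunit, changed by 10.2 points, METTL1, a tRNA methyltransferase, by −6.91, RPS24 by 19.2 and RPL5 by 15.7. Groups overlapped at each of these. RPL35 had a promoter peak in 3 EGFP and 2 OMOMYC lists, RNPS1 in 2 and 2, SMARCC1 in 2 and 3, and RPL10 in 2 and 1.

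The labels were checked against the lists. SMARCB1 (chr22:23786931-23838009) had no peak in any of the 9 ATAC-Seq lists, and its PRO-Seq gene body level in the EGFP and OMOMYC samples was 0.0337 to 0.170 CPM (gene body reads scaled by library size). PRO-Seq maps engaged RNA polymerase in nuclei. Of 18 marker genes of other cell types, 15 had no promoter peak in any of the 6 lists, and the others were SYP, EPCAM and KRT8. Of 10 kidney development genes, 7 had none. Of 7 mesenchyme genes, 4 had none, and only VIM, a filament gene, had a peak in all 6. At MYC (chr8:127735434-127742951), EGFP replicate 1 and OMOMYC replicate 3 had weak peaks near the start (−log10 q 6.08 and 8.20, and 6.47 and 5.75), and EGFP replicate 3 and OMOMYC replicate 1 had none. EGFP replicate 2 and OMOMYC replicate 2 instead had strong peaks that followed coding exons. In EGFP replicate 2, a peak at chr8:127738251-127739031 (−log10 q 77.8) lay over the exon at chr8:127738251-127739019. In OMOMYC replicate 2, a peak at chr8:127738268-127739019 (39.9) did so. A further peak in each began near the next exon, at chr8:127740396, with −log10 q of 70.3 and 38.2. Exon-bounded peaks of MYC are thus found in an EGFP control, where they were stronger than in OMOMYC replicate 2, and whether this control library holds DNA of a MYC construct was not tested.

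PRO-Seq of the same constructs gave a readout that the choice of samples did not use. Gene body counts were tested in edgeR with the replicate number as a block. Of 15060 genes, 618 rose (4.1%) and 666 fell (4.42%) with OMOMYC at a Benjamini-Hochberg adjusted p of 0.05. Of 893 MYC-bound genes tested, 10 rose and 161 fell (18.0%), and of 14167 others 608 rose and 505 fell (3.56%). Of 68 ribosomal protein genes tested, 45 fell and 0 rose, with a median log2 change of −0.43. RPL35 had 58.9, 59.5 and 65.6 CPM with EGFP and 36.4, 32.8 and 48.5 with OMOMYC (log2 change −0.66, SE 0.086, edgeR adjusted p = 0.0133). SNHG15 had 102, 124 and 134 with EGFP and 60.4, 69.6 and 90.4 with OMOMYC (−0.72, SE 0.078, adjusted p = 0.00732). Of the other lists, 20 of 38 biogenesis genes, 16 of 27 translation factors, 11 of 12 RNA hosts and 14 of 34 metabolic targets fell, and none of these rose. SWI/SNF subunits (25 tested) and AP-1 genes (13) had 1 fall each, YAP and TEAD targets (13) had 2 rise, CDK inhibitors and p53 targets (15) had 1 rise and 3 fall, and the genes the study names (11) had 1 rise and 4 fall. Kidney genes (4) had no call, and mesenchyme (5) and other cell types (6) had 1 fall each. In the MYC network, MYC (0.95), MYCL (0.52) and MXI1 (0.32) rose and MXD1 (−0.44) fell. Reads of the OMOMYC construct and of MYC cannot be told apart in this count. The number of calls rested on the fit: 1 gene was called without the block, 2 without replicate 1, 2 without replicate 2, and 6716 without replicate 3. The direction at ribosomal protein genes did not: 67 or 68 of 68 lay below 0 in each of those fits, with medians from −0.32 to −0.58. Replicate 3 of both groups stood apart at some marker genes. PRRX1, a mesenchyme gene, had 0.115, 0.471 and 36.8 CPM with EGFP and 0.116, 0.544 and 30.3 with OMOMYC. PAX2, a kidney gene, had 25.3, 24.6 and 169 with EGFP and 21.9, 24.0 and 138 with OMOMYC. VIM did not follow this pattern (236, 429 and 236 with EGFP, and 186, 327 and 218 with OMOMYC). What sets replicate 3 apart was not tested.

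Genes that fell in PRO-Seq kept their promoter peaks at a share near that of genes not called. Genes that rose kept theirs at a higher share, a difference that was not tested. Of 448 genes that fell and had a promoter peak in at least 2 EGFP lists, 395 (88.2%) kept it, against 6381 of 7062 genes not called (90.4%) and 370 of 388 genes that rose (95.4%). By the 3 against 0 rule, none of 572 genes that rose and 630 that fell gained or lost its promoter peak. Of 12506 genes not called, 5 gained and 3 lost it, so rarely that the absence does not set the called genes apart. The median rank change was 0.23 points over 257 promoter sites of genes that fell, −0.83 over 256 of genes that rose and −0.22 over 3855 of the rest. Groups did not overlap upward at 10 (3.89%) and downward at 12 (4.67%) of the sites of genes that fell, close to the 3.84% and 3.95% of all shared sites. Over 4923 genes, rank change and log2 change of PRO-Seq had a Spearman's rho of −0.008, and over 511 MYC-bound genes 0.018. These correlations are across genes, which are not independent replicates. Of the promoters named for rank, TRMT10C and TBL1XR1 fell in PRO-Seq (log2 change −0.44 and −0.23, edgeR adjusted p = 0.0481 and 0.0425) and NUCB2 rose (0.52, adjusted p = 0.0304). IARS1 stood at −0.30 (adjusted p = 0.056) with its higher promoter rank, and KLHL20 at 0.10 (adjusted p = 0.307). In bulk nuclei, a site open in fewer cells and a site less open in every cell cannot be told apart, and this holds for every ATAC-Seq value above.

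**Figure D5:**
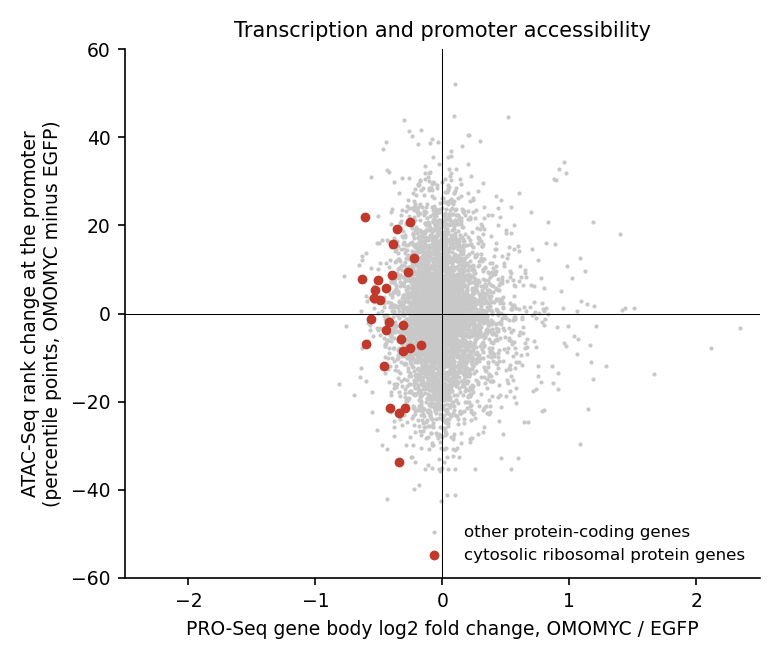
Change of promoter rank percentile, OMOMYC minus EGFP (y axis, points), against the log2 fold change of PRO-Seq gene body counts (x axis) for 4923 genes, with ribosomal protein genes marked. Ribosomal protein genes lie below 0 on the x axis and on both sides of 0 on the y axis.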

How the data were processed

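ATAC-Seq was measured in 3 EGFP and 3 OMOMYC samples of G401 cells. The authors trimmed adapters with cutadapt, aligned reads to hg38 with Bowtie2 and ran MACS2 on every sample by itself, with a q-value limit, per the study's methods and the submitters' processing notes. The deposited lists give each peak's position and summit, a fold enrichment ratio over the local background of that sample, and −log10 values of p and of q, which the authors' peak caller computed. The lists hold no read counts, the read totals that the study states were not used here, and peak numbers were not scaled to depth. MYC ChIP-Seq peak lists of 2 EGFP samples (hg19) named the MYC-bound genes, and were joined to ATAC-Seq by gene symbol only. For PRO-Seq, the authors counted reads per RefSeq transcript, and the deposited table (hg19) holds raw counts, of which gene body counts were used (28444943 to 46957634 per sample over the 9 samples). No coordinate was converted between builds.

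Peaks of the 6 lists were merged at 1 bp of overlap and assigned to GENCODE 44 transcript starts in GRCh38. Ranks of −log10 q among the 5314 sites in all 6 lists were turned into normal scores and tested with limma 3.58.1 in R 4.3.3. Measures per list were compared by two-sided exact permutation tests, adjusted over 16. PRO-Seq counts were tested with edgeR 4.0.16 (quasi-likelihood, RLE factors, mean count of at least 10, 1 transcript per symbol, replicate block, 9 samples), with DESeq2 1.42.0 as an alternative. In PRO-Seq, deviations of same-numbered samples from their group means correlated at 0.830, 0.846 and 0.896, so the numbers paired the samples. Of 20367 symbols in the table, 2735 were renamed to current symbols through RefSeq, and 19842 then matched the annotation. Scripts were tested on simulated data and ran in Python 3.11.15.

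The samples, gene lists and sites were chosen with earlier results of these data known. Sites named were all those gained or lost (3 lists against 0), among sites in all 6 lists the 8 with the largest rise and the 8 with the largest fall of rank without overlap between groups, and members of the gene lists by highest and lowest change. Further list members named for PRO-Seq or for a lost list call were picked after their values were seen. Alternatives were a stricter q, equal list length, summit matching, other promoter definitions, fold enrichment as the measure, a replicate block and leaving out each sample. Some members of the lists are not reported here.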

Additional observations from a re-analysis of the deposited data

How the results depend on the processing

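The lists hold no read counts, so presence was not scaled to depth. With −log10 q of at least 10, lost sites were 2, and 80.5% of promoter and 68.1% of distal sites were kept. With lists of equal length, 33 sites were gained and 46 lost, 86.1% of promoter sites were kept, and promoter rank difference turned to −0.29 points. The MYC-bound rank difference was −2.53 points at equal length and −2.41 by fold enrichment (exact permutation p = 0.3 for both). With summits matched within 150 bp, 17 sites were gained, 24 lost, and 84.2% of promoter sites kept. At 2 of 3 lists against 0, 611 were gained and 144 lost. The cause of these shifts was not tested.

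Leaving out 1 sample at a time, where "at least 2" then meant both remaining lists of that group, gave 13 to 550 gained and 8 to 312 lost sites, 61.7% to 96.5% of promoter and 17.9% to 89.0% of distal sites kept, a difference of −3428 to 4784 peaks, −13.2 to −5.17 bp in median width, and −10.8 to 6.76 percentage points in promoter share. The rank difference of promoters against distal sites ran from −7.35 to 3.72 points and that of MYC-bound promoters from −3.02 to 0.93. The sign turned for peaks (−761 without EGFP replicate 3, −3428 without OMOMYC replicate 2), promoter share (1.86 and 6.76), promoter rank (−0.85 without EGFP replicate 1, −3.04 without EGFP replicate 3, −7.35 and −3.61 without OMOMYC replicates 1 and 2) and MYC-bound promoters (0.71 without EGFP replicate 1, 0.93 without OMOMYC replicate 3). limma calls stayed at 0 in these fits and in the others run (replicate block, intensity trend, fold enrichment, percentile in the whole list, stricter q, chromosome set and merge of all 9 lists), and limma was not run at equal length, with summit matching or with other promoter definitions.

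By deviations of rank, ATAC-Seq numbers paired the samples weakly at most. Deviations of rank from the group means correlated at 0.063, 0.131 and 0.035 for same-numbered samples, and at −0.112 to 0.039 for other pairs. Each OMOMYC list correlated best with the EGFP list of the same number. EGFP replicate 3 correlated about as well with OMOMYC replicate 1 (0.039) as with OMOMYC replicate 3 (0.035). Replicate 2 did share traits between the groups: the longest list (17817 and 23684 peaks) and the lowest promoter share (62.0% and 52.7%). Its EGFP and OMOMYC lists also had the highest rank correlation of any pair (rho 0.813). Replicates 1 and 3 differed in order, with list length higher in replicate 1 for EGFP and in replicate 3 for OMOMYC. What replicate 2 had in common was not tested. With the replicate number as a replicate block, the difference of 1220 peaks had an exact sign-flip p of 0.75, and limma called 0 sites in either direction (101 and 85 at an unadjusted p of 0.05). PRO-Seq calls, 1284 with the block, were 1 without it, 1943 with only EGFP and OMOMYC samples, 2067 with DESeq2, and 2 to 6716 when 1 replicate was left out. Of the values under all alternatives, 91 kept their direction and their side of the threshold or range (some with a several-fold change in size), 36 moved and 11 reversed.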
